A study of Macaca mulatta with 16 samples.

Results

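Troponin is the calcium switch of the thin filament in striated muscle, and its subunits come in slow, fast and cardiac forms encoded by separate genes. The members described here are all probe sets whose platform gene symbol is TNNC1, TNNC2, TNNI1, TNNI2, TNNI3, TNNT1, TNNT2 or TNNT3. Of these 8 genes, 7 had a probe set, 1 each, all on the human U133A array of 22283 probe sets. None of the 22645 probe sets of the U133B array carried a member's symbol, so the members were 7 of 44928 probe sets in all. No probe set is listed under TNNT2, the cardiac troponin T gene, in the annotation used, and TNNT2 was not analysed here.

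RNA came from extraocular muscle, the muscles that move the eye, of adult rhesus monkeys (Macaca mulatta), with no treatment or genotype named in the labels. The 4 groups were the orbital layer, the global layer, whole lateral rectus and whole medial rectus, with 2 arrays per group on U133A. The layers were taken by laser microdissection and their RNA was amplified with T7 polymerase, whereas whole muscle RNA followed the standard array protocol. The labels do not say whether arrays come from separate animals or how many regions were pooled, so the p-values given here cover the spread between these arrays alone, which may be technical. The array titled orbital layer replicate 1 carries a source name that says global layer. Groups follow the titles here, and the troponin differences and ratios, and the gene list counts between the layers, were also computed without that array.

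In the troponin complex, troponin C binds calcium, troponin I holds the filament off until it does so, and troponin T ties both to tropomyosin. Slow fibres use TNNC1, TNNI1 and TNNT1, and fast fibres use TNNC2, TNNI2 and TNNT3. Heart muscle shares TNNC1 with slow fibres and has its own troponin I, TNNI3, and troponin T, TNNT2. Since each fibre carries mainly the set of its type, troponin genes are used as markers of fibre type. Extraocular muscle is known for an unusual mix of fibre types that differs between its outer orbital and inner global layer.

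Intensities are the authors' values, scaled per array, on a linear scale. The intensity of a probe set also depends on how well human probes bind the macaque transcript, so levels are compared between arrays and never between genes. The 6 skeletal muscle markers checked (ACTA1, CKM, DES, MB, TTN and MYH13) were all at or above the table's pooled median of 654 units in their mean log2 value. Signal ratios used as signs of RNA quality differed between the groups. Between layers and whole muscle, RNA quality and the T7 amplification cannot be told apart. The 3' to 5' signal ratio of ACTB, the beta-actin gene, was 5.30 and 5.87 on the orbital arrays, 2.84 and 2.88 on the global arrays, and 0.716 to 1.04 in whole muscle. The same ratio of GAPDH was 2.92 in global layer replicate 1 and 0.947 to 2.00 on the other 7 arrays.

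The slow subunits were at their highest in the orbital layer. TNNC1, the troponin C of slow fibres and heart, was at 74812 and 70477 units in the orbital layer and at 16622 and 48568 in the global layer. It was at 29806 and 30057 in the lateral and at 26526 and 31723 in the medial rectus. Both orbital arrays lay above the other 6 arrays, and the global arrays lay on either side of all 4 whole muscle arrays.

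TNNT1, the slow troponin T, was at 35424 and 35685 units in the orbital layer and at 9490.2 and 31981 in the global layer. It was at 11414 and 7545 in the lateral and at 10367 and 7759.9 in the medial rectus. The orbital arrays were again above all others, but global layer replicate 2 came close to them, while global layer replicate 1 lay within the range of whole muscle.

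TNNI1, the slow troponin I, was at 23533 and 12083 units in the orbital layer and at 7860.3 and 12679.9 in the global layer. It was at 12685 and 10328 in the lateral and at 8759.9 and 14083 in the medial rectus. Here orbital layer replicate 1 alone stood above the rest, and orbital layer replicate 2 lay within the range of the other groups. In the order of group means, the orbital layer came first for all 3 slow genes. Among the global layer and both whole muscles, no neighbours in that order were separated by their arrays for any slow gene.

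**Figure D1:**
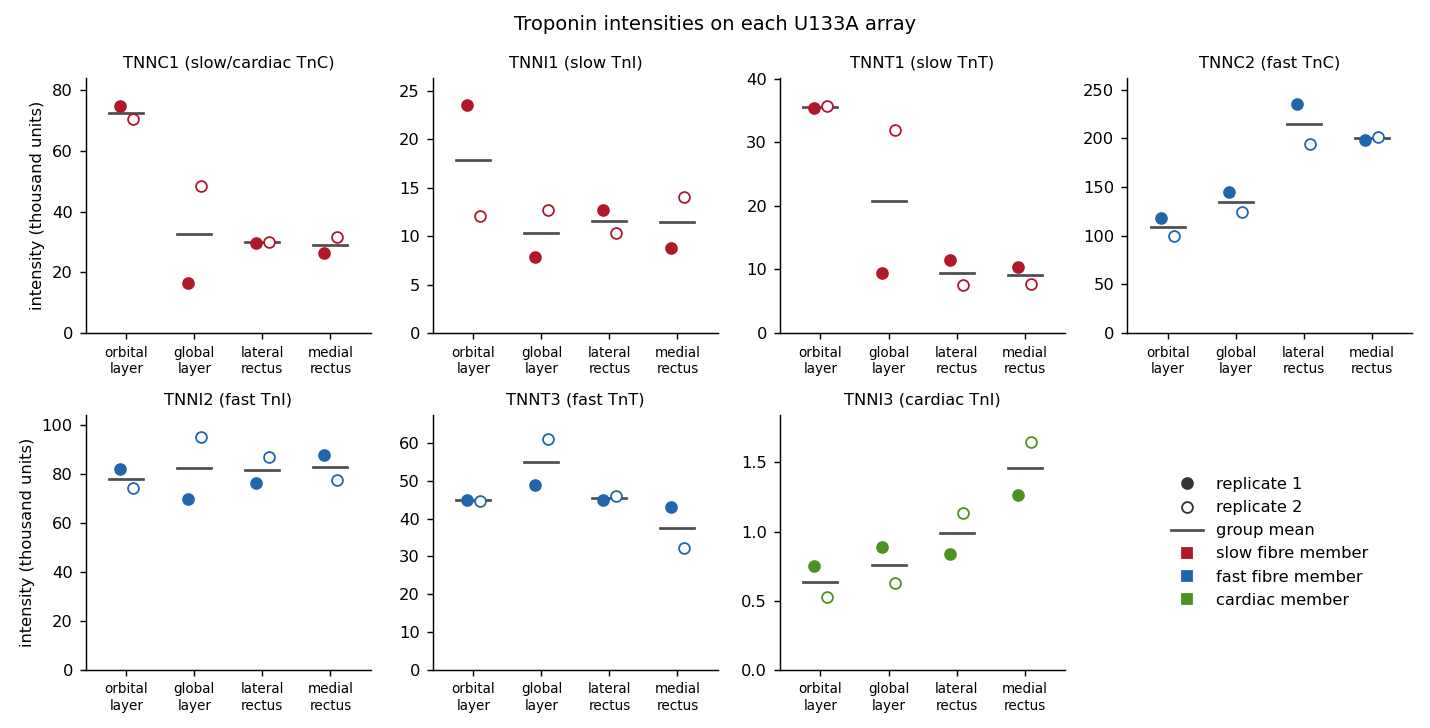
Intensity (linear axes from 0, a different scale in each panel) of the 7 troponin probe sets on each of the 8 U133A arrays; points are arrays and lines are group means. The orbital arrays lie above the other 6 for TNNC1 and TNNT1, TNNC2 is lower in both layers than in whole muscle, and the 2 global arrays lie far apart for TNNC1 and TNNT1.

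The fast subunits varied less. TNNC2, the troponin C of fast fibres, was at 117959 and 100034 units in the orbital layer and at 145159 and 124851 in the global layer. It was at 235582 and 194470.1 in the lateral and at 198520.5 and 201682 in the medial rectus. All 4 whole muscle arrays lay above all layer arrays, and both global arrays lay above both orbital arrays. Only the lateral and medial rectus overlapped.

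TNNI2, the fast troponin I, was at 82085 and 74316 units in the orbital layer and at 70022 and 95253 in the global layer. In the lateral rectus it was at 76459 and 87035, and in the medial rectus at 87971 and 77774. No neighbouring groups were separated, and its highest array was 1.36-fold above its lowest. The same range was 2.36-fold for TNNC2 and 1.90-fold for TNNT3. Among the slow members it was 2.99-fold for TNNI1, 4.50-fold for TNNC1 and 4.73-fold for TNNT1.

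TNNT3, the fast troponin T, was at 44898.5 and 44828 units in the orbital layer and at 48899 and 61012 in the global layer. It was at 45078 and 45900.2 in the lateral and at 43022 and 32139.7 in the medial rectus. The global layer was highest on both arrays and the medial rectus lowest. The orbital layer and the lateral rectus did not overlap either, but their means differed by 1.01-fold, less than the spread within the other groups.

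TNNI3, the cardiac troponin I, gave intensities near the filter on low values. It was at 748 and 523 units in the orbital layer, 890.3 and 624 in the global layer, 839.8 and 1133 in the lateral and 1264 and 1649 in the medial rectus. On 6 of 8 arrays it reached the pooled median, and on none was it at the floor of 146 units. The medial rectus lay above the lateral rectus on both arrays, while the layers overlapped each other.

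The orbital and global layers were compared to ask whether their troponin sets differ. By the mean of log2 values, from which all fold differences were taken, TNNC1 was 2.56-fold higher in the orbital layer, at 72644.5 ± 3066 against 32595 ± 22589 units (SD, n = 2 each). On the log2 scale this was 1.35 ± 0.43 (SE; 95% interval 0.36 to 2.35), with adjusted p = 0.377 in limma. TNNT1 was 2.04-fold higher (log2 difference 1.03 ± 0.48, interval -0.09 to 2.15, adjusted p = 0.556) and TNNI1 1.69-fold higher (0.76 ± 0.37, interval -0.09 to 1.61, adjusted p = 0.565). With all arrays, the fast subunits had smaller differences of negative sign, although TNNI2 turned positive with quantile normalization (0.035) and without single arrays (up to 0.16), and TNNT3 exceeded TNNT1 in size without global layer replicate 1. The log2 difference was -0.31 ± 0.18 for TNNC2 (interval -0.72 to 0.10), -0.28 ± 0.20 for TNNT3 (-0.74 to 0.18) and -0.06 ± 0.21 for TNNI2 (-0.54 to 0.41). Their adjusted p-values in limma were 0.619, 0.679 and 0.947. TNNI3 differed by -0.25 ± 0.39 (interval -1.16 to 0.65, adjusted p = 0.864).

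None of the 7 members passed the threshold of adjusted p under 0.05 in limma between the layers, where 0.409% of the 9532 probe sets tested did. An unadjusted p under 0.05 was found for 1 of 7, TNNC1 at 0.014, against 9.49% of all. In 4 of 7 members the layers did not overlap, TNNC1 and TNNT1 higher and TNNC2 and TNNT3 lower in the orbital layer, against 41.9% of all probe sets (18.5% higher and 23.4% lower), a share not far from that of the members. The median difference of the members was -0.06, beside -0.04 over all probe sets. In whole tissue or dissected layers, fewer fibres of a type and less RNA per fibre cannot be told apart.

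The gap between the global arrays was larger than the layer difference itself for 5 of 7 members, TNNC1, TNNT1, TNNI2, TNNT3 and TNNI3, and for TNNI1 the gap between the orbital arrays was (-0.96). Global layer replicate 2 was 2.92-fold above replicate 1 for TNNC1 and 3.37-fold for TNNT1. Gaps as large as these were found in 1.81% and 1.14% of the 9532 probe sets tested. For TNNI1 the gap was 1.61-fold, and for TNNC2 the sign was the opposite (log2 gap -0.22). Leaving out single arrays moved these genes. Without global layer replicate 2, TNNC1 was higher in the orbital layer by 2.13 ± 0.18 and TNNT1 by 1.91 ± 0.20 on the log2 scale, and both passed (adjusted p = 0.00291 and 0.00744 in limma, when 1.5% of all probe sets passed). Without global layer replicate 1, the differences were 0.58 ± 0.17 and 0.15 ± 0.19 (adjusted p = 0.243 and 0.849). The lone array left in a group is then assumed to vary like the other group. Adjusted p over all alternatives ranged from 0.00291 to 0.824 for TNNC1 and from 0.00744 to 0.849 for TNNT1. Without orbital layer replicate 1, the array with conflicting labels, TNNC1 differed by 1.31 and TNNT1 by 1.03, and TNNI1 by 0.28 in place of 0.76. TNNC2 then differed by -0.43, TNNI2 by -0.14, TNNT3 by -0.29 and TNNI3 by -0.51, and none of the 7 passed. Without orbital layer replicate 2, TNNI1 differed by 1.24 (adjusted p = 0.201).

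Other values moved with these arrays. Of the slow fibre contractile genes described further on, 7 of 8 were higher in global layer replicate 2 than in replicate 1 (median log2 gap 0.73), and so were 8 of 9 fast fibre contractile genes (0.56) and 5 of 6 skeletal muscle markers (0.14). Endothelial markers were higher there in 1 of 5 (median gap -0.98). The GAPDH ratio given above also parted the global arrays, whereas the ACTB ratio did not (2.84 in replicate 1 and 2.88 in replicate 2). The part of these measures in the troponin values was not tested.

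**Figure D2:**
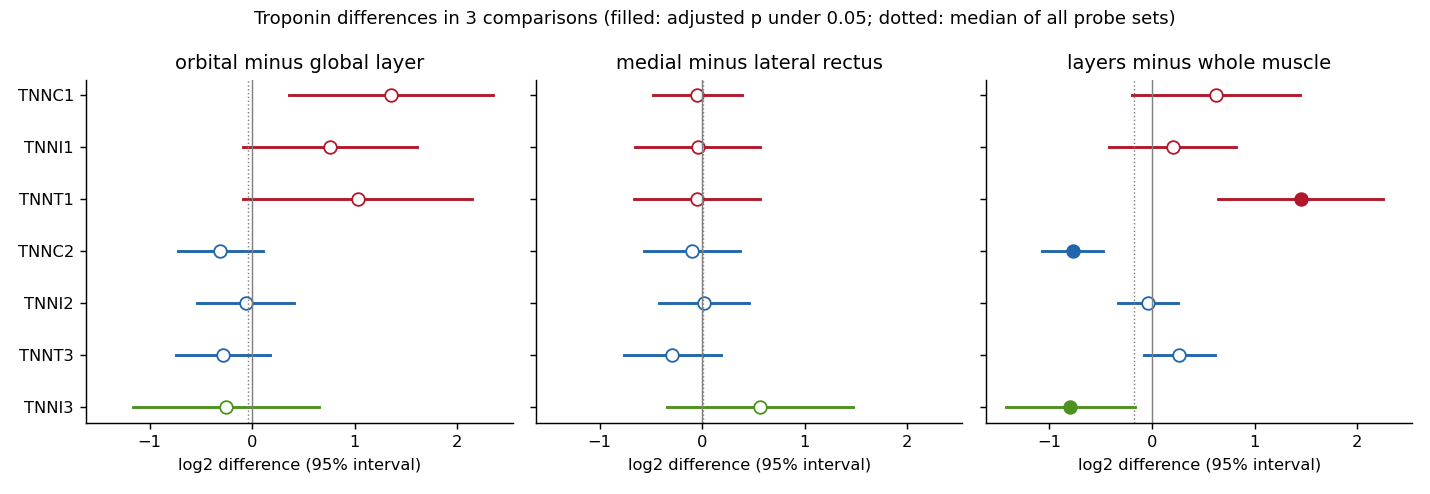
Log2 difference of each troponin probe set (points) with its 95% interval from limma (lines) in 3 comparisons; filled points passed adjusted p under 0.05, and dotted lines mark the median of all probe sets tested. Between the layers the 3 slow members lie to the right of 0 without passing, between the rectus muscles every interval holds 0, and TNNT1, TNNC2 and TNNI3 passed between layers and whole muscle.

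A fast to slow ratio was then formed for each subunit on each array, as the log2 difference between the fast and the slow probe set. The size of such a ratio depends on both probe sets and has no meaning alone, so only its change between groups is read. For troponin C (TNNC2 to TNNC1) it was 0.66 and 0.51 in the orbital layer and 3.13 and 1.36 in the global layer. In the lateral rectus it was 2.98 and 2.69, and in the medial rectus 2.90 and 2.67. The orbital arrays were the lowest 2 of the 8, and global layer replicate 2 lay between them and the rest.

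For troponin T (TNNT3 to TNNT1) the ratio was 0.34 and 0.33 in the orbital layer and 2.37 and 0.93 in the global layer. It was 1.98 and 2.60 in the lateral and 2.05 on both arrays of the medial rectus. As for troponin C, the orbital arrays were lowest and global layer replicate 2 came next, but the order of the other 5 arrays differed. For troponin I (TNNI2 to TNNI1) it was 1.80 and 2.62 in the orbital layer, 3.16 and 2.91 in the global layer, 2.59 and 3.07 in the lateral and 3.33 and 2.47 in the medial rectus. Here the orbital layer overlapped both whole muscles.

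All 3 ratios were lower on both orbital arrays than on both global arrays. The difference was -1.66 for troponin C (3.17-fold), -1.31 for troponin T (2.48-fold) and -0.82 for troponin I (1.77-fold). With 2 arrays against 2, the exact two-sided permutation test gave p = 0.333 for each, which is the smallest p this design allows, and 0.599 adjusted over the 9 ratio comparisons. With all arrays, TNNC1, TNNT1 and TNNI1 differed by 1.35, 1.03 and 0.76, and their fast partners by -0.31, -0.28 and -0.06. Without global layer replicate 1 the order of sizes turned for troponin T, with TNNT1 at 0.15 and TNNT3 at -0.44. Without orbital layer replicate 1 the ratio differences were -1.74, -1.32 and -0.41, in the same order of subunits. Without global layer replicate 1 they were -0.78, -0.60 and -0.70, and without global layer replicate 2 they were -2.55, -2.03 and -0.94.

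**Figure D3:**
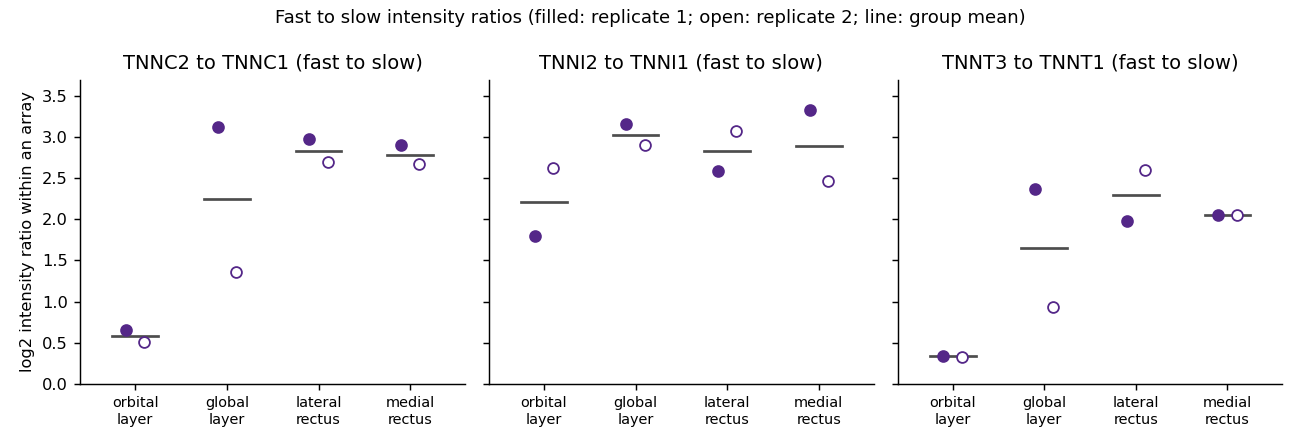
Log2 ratio of the fast to the slow troponin probe set within each U133A array, by subunit; points are arrays and lines are group means. Both orbital arrays lie below both global arrays in all 3 panels, and the global arrays are spread over more than 1 log2 unit for troponin C and T.

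The medial rectus, which turns the eye inward, was set against the lateral rectus, its outward partner. None of the 7 troponins passed in limma (all adjusted p = 0.999) and none had an unadjusted p under 0.05. Over all 11907 probe sets tested, 0% passed and 2.8% had an unadjusted p under 0.05. The log2 difference was between -0.10 and 0.02 for 5 members: -0.05 ± 0.19 for TNNC1, -0.04 ± 0.27 for TNNI1, -0.05 ± 0.27 for TNNT1, -0.10 ± 0.20 for TNNC2 and 0.02 ± 0.19 for TNNI2. Their 95% intervals reached from -0.66 at the lowest (TNNT1) to 0.57 at the highest (TNNI1), so that changes up to about that size in either direction are left within the error. All 5 changed sign in at least 1 alternative.

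TNNT3 was lower in the medial rectus by 0.29 on the log2 scale (37581 ± 7695 against 45489 ± 581 units, SD, n = 2 each; interval -0.77 to 0.18). TNNI3 was 1.48-fold higher there (1456 ± 273 against 987 ± 208; log2 difference 0.57 ± 0.39, interval -0.34 to 1.47). In these 2 of 7 members the muscles did not overlap, as in 28.6% of all probe sets (15% higher and 13.6% lower in the medial rectus). The fast to slow ratios differed by -0.05 (troponin C), 0.06 (troponin I) and -0.24 (troponin T), with exact two-sided permutation p of 0.667, 1 and 1, or 0.858, 1 and 1 after adjustment over the 9 comparisons. All 3 changed sign when single arrays were left out.

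The layers were also set against whole muscle, 4 arrays against 4. Tissue and the T7 amplification cannot be told apart in this comparison, and 48.7% of the 10533 probe sets tested passed in limma. Of the 7 members 3 passed, a share close to that background, and 1 of 7 did not overlap (TNNC2), against 43.9% of all probe sets (16.6% higher and 27.3% lower). An unadjusted p under 0.05 was found for 3 of 7, against 55.3%. TNNT1 was 2.73-fold higher in the layers, at 28145 ± 12551 against 9271 ± 1920 units (SD, n = 4 each; log2 difference 1.45 ± 0.37, adjusted p = 0.00685). TNNC2 was 1.71-fold lower, at 122001 ± 18648 against 207564 ± 18911 (-0.78 ± 0.14, adjusted p = 8.97e-04 in limma, and 4.37e-04 to 0.0364 over its alternatives). TNNI3 was 1.74-fold lower, at 696 ± 159 against 1222 ± 336 (-0.80 ± 0.29, adjusted p = 0.0376).

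The median of all probe sets was itself -0.18 between layers and whole muscle and 0.00 after quantile normalization, so the scaling matters here. Relative to the median of -0.18, TNNT1 was at 1.63, TNNC2 at -0.60 and TNNI3 at -0.62. This reference depends on the brightness of the probe sets kept. With the filter at the 75th percentile the median was 0.15, and 59.5% of calls were higher in the layers. After quantile normalization TNNC2 alone passed (-0.50, adjusted p = 0.0121 in limma), whereas TNNT1 was at 0.95 (adjusted p = 0.0503, the highest over its alternatives) and TNNI3 at -0.23 (adjusted p = 0.529). Of all calls, 38.3% were higher in the layers in the original scaling and 50.4% after quantile normalization. TNNI3 also fell short of the threshold with no filter and without each of 6 single arrays, both orbital arrays, global layer replicate 2, lateral rectus replicate 2 and both medial rectus arrays, at adjusted p from 0.0572 to 0.106. Over all its alternatives, adjusted p ranged from 0.0197 to 0.529.

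The other 4 members did not pass between layers and whole muscle. TNNC1 was at 0.62 ± 0.38 (adjusted p = 0.187 in limma), with both orbital arrays and global layer replicate 2 above all whole muscle arrays and global layer replicate 1 below them. Without global layer replicate 1, TNNC1 was higher by 1.11 ± 0.16 and passed (adjusted p = 5.16e-04; range over its alternatives 5.16e-04 to 0.674). TNNI1 was at 0.20 ± 0.28 and TNNT3 at 0.27 ± 0.16, and both turned negative under quantile normalization (-0.33 and -0.12). TNNI2 was at -0.04 ± 0.13. The fast to slow ratios were lower in the layers by 1.40 (troponin C), 1.18 (troponin T) and 0.24 (troponin I) on the log2 scale. Exact two-sided permutation p was 0.143, 0.114 and 0.543 (0.599, 0.599 and 0.814 adjusted over 9), where the smallest possible p was 0.0286. Under quantile normalization the troponin C ratio was at -0.73, the troponin T ratio at -1.07 and the troponin I ratio at 0.092.

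The genes that work beside troponin were counted from fixed lists, each gene by its brightest U133A probe set with 1 symbol. Of the thin filament partners of troponin, the actins, tropomyosins and filament end and length proteins, 8 of 14 were tested between the layers and none passed (3 higher, 5 lower, median -0.15). Those nearest to passing were TPM4, a tropomyosin, at 0.87 ± 0.29 and TMOD1, which caps the filament's pointed end, at -0.48 ± 0.31 (adjusted p = 0.394 and 0.656 in limma). TPM1 and TPM2, the main tropomyosins on this list, were at 0.01 and -0.16.

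Of the slow fibre contractile genes outside the troponins, 8 of 8 tested had a positive log2 difference between orbital and global layer, with a median of 0.47, and 1 rose. Without orbital layer replicate 1 it was 7 of 8 (median 0.35), and without global layer replicate 1 it was 6 of 8 (median 0.17). This was CSRP3, a LIM domain protein at the Z-disc (3.07 ± 0.31, adjusted p = 0.0106 in limma). CASQ2, the cardiac calsequestrin that stores calcium, was at 1.42 ± 0.30 (adjusted p = 0.161). The slow troponins, at 0.76 to 1.35, lay inside the range of this list, 0.09 to 3.07. Among fast fibre contractile genes 8 of 9 tested had a negative log2 difference, also without any single layer array, with a median of -0.64, and ACTN3, the fast Z-disc actinin, fell (-5.41 ± 0.55, adjusted p = 0.0106). ACTN3 averaged 509 units in the orbital layer, below the pooled median of 654, and 23881 in the global layer. It therefore reached the filter only through the global layer, and the size of its difference rests on low orbital values. MYOZ1, another Z-disc protein, was at -1.02 ± 0.20 (adjusted p = 0.133 in limma). All 3 fast troponins, at -0.31 to -0.06, were nearer to 0 than this median. Over all probe sets, 0.283% rose, 0.126% fell and the median was -0.04.

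**Figure D4:**
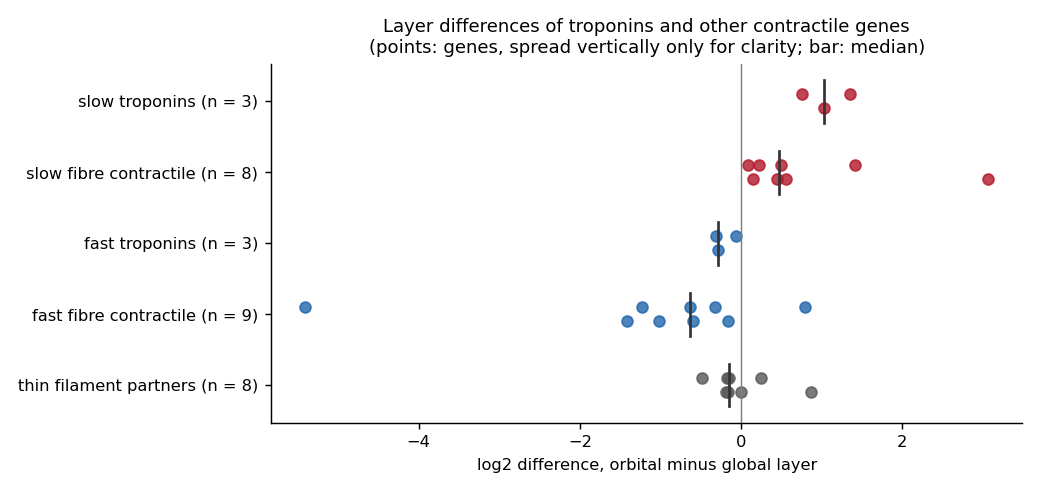
Log2 difference between orbital and global layer for the slow and fast troponins and for the lists of slow fibre, fast fibre and thin filament genes; each point is a gene and each bar a list's median. The slow troponins lie to the right of 0 with the 8 slow fibre genes, and the fast troponins lie close to 0, nearer than the median of the fast fibre list (-0.64).

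Developmental and cardiac isoforms, the set that TNNI3 belongs to by name, had a positive log2 difference between orbital and global layer in 4 of 6 tested (median 0.80). MYH3, the embryonic myosin heavy chain, and MYH6, the alpha-cardiac one, rose by 3.81 ± 0.51 and 2.12 ± 0.23 (adjusted p = 0.0310 and 0.0154 in limma), while TNNI3 was at -0.25. CSRP3, ACTN3, MYH3 and MYH6 each passed also without any single layer array. Other genes of these lists passed only with an array left out: CASQ2 without orbital layer replicate 2 or global layer replicate 2, MYOD1 without orbital layer replicate 2, MYH1, PVALB and MYL4 without global layer replicate 1, and MYH2 without global layer replicate 2. With all arrays, CASQ2, MYL4 and MYH2 were higher in the orbital layer (1.42, 1.41 and 0.80). MYH2 was the 1 fast fibre gene tested that went against the direction of its list. MYH1, PVALB and MYOD1 were lower (-1.22, -1.41 and -0.99). Regulators of fibre type were higher in 4 of 8 (median -0.01) and none passed with all arrays. PPARGC1A, a coactivator tied to oxidative and slow fibres, was at 0.48 ± 0.23 (adjusted p = 0.556), and MYOD1, a myogenic factor, at -0.99 ± 0.57 (adjusted p = 0.619). GTF2IRD1, a factor known to bind the TNNI1 enhancer, was at -0.07 ± 0.27.

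In the medial against the lateral rectus no gene of these 5 lists passed in limma. The medians were -0.21 for thin filament partners (7 of 8 lower), -0.21 for fast fibre genes (9 of 9 lower) and 0.03 for slow fibre genes (5 of 8 higher). Developmental and cardiac isoforms had a median of -0.03 (2 of 6 higher) and fibre type regulators one of 0.02 (5 of 9 higher). The genes with the smallest p were NEB (-0.32) and TMOD1 (-0.32) for thin filament, MYH4 (-0.46) and CASQ1 (-0.35) for fast, and CSRP3 (0.37) and ATP2A2 (-0.27) for slow fibre genes. Among developmental and cardiac isoforms they were MYH3 (0.35) and MYH6 (-0.20), and among regulators MYOD1 (-0.69) and EYA1 (0.18). Lower values in the medial rectus were not particular to these lists. Skeletal muscle markers were lower in 6 of 6 (median -0.18), endothelial in 4 of 4, smooth muscle in 3 of 3 and Schwann in 2 of 2. Fibroblast markers were lower in 4 of 6 and the red cell marker tested was lower, but the adipocyte marker tested was higher. Of all probe sets tested, 50.5% were higher.

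Between layers and whole muscle, where 18.6% of all probe sets rose and 30.1% fell, 3 of 8 slow fibre genes rose: MYH7, the slow myosin heavy chain (0.96 ± 0.22), ATP2A2, the slow calcium pump (0.90 ± 0.16), and MYOZ2 (0.81 ± 0.25). Of the fast fibre genes 2 of 9 fell: MYL1, a fast myosin light chain (-0.76 ± 0.12), and ATP2A1, the fast calcium pump (-0.96 ± 0.18). Of the thin filament partners TPM2 (0.45), TMOD1 (0.72) and KLHL41 (0.60) rose and ACTC1, the cardiac actin, fell (-0.30). Of 6 developmental and cardiac isoforms, NPPA, the atrial natriuretic peptide gene, fell (-1.63 ± 0.20) together with ACTC1, whereas MYH8, the perinatal myosin heavy chain, rose (1.41 ± 0.21). Of 9 fibre type regulators EYA1 (1.31), PPARGC1A (1.38), MEF2A (0.66) and MEF2C (0.88) rose and MYOG fell (-2.03). The adjusted p of these genes in limma lay between 1.34e-04 (NPPA) and 0.0427 (ACTC1).

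Summed levels of markers of other cells in the tissue differed between the layers in some lists, but no single marker passed in limma between the layers, and their part in the troponin values was not tested. The summed intensity of 6 fibroblast markers was 227993 to 260160 units on the orbital and 193239 to 195429 on the global arrays. The 6 smooth muscle markers summed to 15632 to 17070 and 13983 to 15508, with CNN1 and LMOD1 below the pooled median in their mean log2 value over all 8 arrays. The 6 endothelial markers summed to 13410 to 15054 and 17126 to 22282, with CLDN5 and KDR below it in that mean, although CLDN5 passed the filter in the layers (-0.048 ± 0.55). The 6 skeletal muscle markers themselves summed to 355787 to 381231 in the orbital and 419921 to 446960 in the global layer. Such sums mostly follow the brightest probe sets. Of these 6 markers 4 were lower and 2 higher in the orbital layer, DES at 1.29 ± 0.36 and MB at 0.28 ± 0.22. Of the 4 smooth muscle markers tested, 2 were higher and 2 lower there. In whole muscle the skeletal muscle markers summed to 428597 to 568748 and the smooth muscle markers to 7476 to 11862. Adipocyte markers summed to 1119.7 to 2155 units in the orbital and 3352 to 6606 in the global layer, and of these 4 only FABP4 reached the median in its mean log2 value over the 8 arrays. Leukocyte markers summed to 1386 to 1528 and 726.5 to 1196, and none of the 3 on the array reached the median in that mean, although LYZ passed the filter in the layers (0.79, adjusted p = 0.628 in limma). Schwann cell markers (8077 to 9269 and 9037 to 9468) and red cell markers (20202 to 28573 and 19876 to 25786) overlapped between the layers.

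Troponin I and T genes lie in pairs in the macaque genome, and the RefSeq gene table (assembly T2T-MMU8v2.0) was used to place the members. TNNI2 and TNNT3, both fast, lie on the same chromosome with 2 protein-coding genes between them, LSP1 and PRR33. TNNT1, slow, and TNNI3, cardiac, lie close to each other with 1 protein-coding gene, DNAAF3, between them in the order of starts. TNNI1, slow, has TNNT2 near it with LAD1 between them. The neighbours TNNT1 and TNNI3 differed in opposite directions in the layers against whole muscle (1.45 and -0.80), and TNNI2 and TNNT3 differed by -0.04 and 0.27. The troponin C genes share a chromosome with no other member.

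The genes whose pattern was most like each member were found by Pearson correlation over the 8 arrays, after removing the mean of the layer arrays and of the whole muscle arrays. Protocol and kind of sample are shared only within the layer arrays and within the whole muscle arrays. With 8 arrays high values are common, so these are descriptions without a test. Among 9300 probe sets, 112 had r above 0.9 with TNNC1, and the nearest were PFN1 (r = 0.989), YY1 and DDX17. TNNT1 was followed most closely by HNRNPH3 (r = 0.990), DDX17 and BHLHE40, and TNNI1 by LSM4 (r = 0.966), ADCY3 and MRPL40. For the fast members they were PSMD1 (r = 0.986), GRSF1 and METTL5 for TNNC2, SCUBE3 (r = 0.957), RNF113A and CLCN1 for TNNI2, and DLAT (r = 0.986), BICD2 and VPS37C for TNNT3. The nearest to TNNI3 were ITGB5 (r = 0.990), DNAH7 and SLC35F2. No troponin was among the 3 nearest genes of another troponin. Between the slow members themselves, r was 0.909 for TNNC1 and TNNT1, 0.773 for TNNC1 and TNNI1, and 0.629 for TNNI1 and TNNT1. The difference between the layers and the gap between the global arrays remained in these values. On the whole muscle arrays alone, TNNC1 and TNNT1 did not follow the same order. There TNNC1 was highest in medial rectus replicate 2 (31723 units) and TNNT1 in lateral rectus replicate 1 (11414 units). Between the fast members it was 0.583 for TNNI2 and TNNT3 and -0.243 for TNNC2 and TNNI2, with TNNC2 and TNNT3 in between.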

How the data were processed

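The values deposited by the authors are linear intensities, 1 for each probe set on each array, already scaled (their 2% trimmed mean lay between 1500.34 and 1500.61 units on U133A). Summary software and detection calls are not given in the sources used here. Arrays were grouped by title. Members and gene lists were chosen with earlier results of these data known.

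Arrays were brought to the same 2% trimmed mean, and values below the 20th percentile of all values in a table (146 units on U133A) were set to that percentile before taking log2. A probe set entered a comparison when its mean log2 value there was at least the log2 of the pooled median (654 units), as for all 7 members. The 68 control probe sets were left out. Comparisons used limma 3.58.1 in R 4.3.3 (2 groups, intensity trend), two-sided, with Benjamini-Hochberg adjustment over all probe sets kept; fold changes are 2 to the power of the log2 difference. Symbols came from the platform annotation (19071 probe sets on U133A with 1 symbol, 1043 with several, 2169 with none). The number of arrays limits the precision. The fitting script was also run on simulated data with known fold changes, as a check of the code only. Figures were drawn with matplotlib 3.10.9.

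Named genes were all members and every gene of the 5 lists past the threshold. The 2 of each list with the smallest p in a comparison and the 3 genes most like each member were named too. TPM1, GTF2IRD1, MYH2 and the 6 skeletal muscle markers were named after their values were seen. Alternatives were quantile normalization, other floors and filters, no trend, all 4 groups in 1 fit, the replicate number as a block, and each array left out. For the gene lists, leaving out layer arrays was added after seeing the data.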

Additional observations from a re-analysis of the deposited data

How the results depend on the processing

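Between the layers, the number of troponins that passed in limma was 0 in every alternative that used all arrays, and 0 to 2 when single arrays were left out. Between layers and whole muscle it was 1 with quantile normalization and 2 to 4 when single arrays were left out, against 3. There it was also 2 with no filter and 2 with the filter at the 75th percentile. With no filter no probe set passed between the layers, 12 did without a trend and 21 with quantile normalization, against 39. When 1 array was left out, 68 to 144 passed. For medial against lateral rectus 7 passed when the filter was set at the 75th percentile and 0 to 9 when 1 array was left out, against 0; for layers against whole muscle 2513 passed with that filter, against 5132. TNNI3 was not tested with that filter, nor between the layers without global layer replicate 1.

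Several small differences changed sign, and the cause was not tested. With quantile normalization TNNI2 was at 0.035 between the layers, TNNC1, TNNI1 and TNNT1 at 0.076, 0.0060 and 0.025 between the rectus muscles, and TNNI1, TNNT3 and the troponin I ratio at -0.33, -0.12 and 0.092 between layers and whole muscle. With single arrays left out, the range between the layers was -0.29 to 0.16 for TNNI2 and -0.51 to 0.0041 for TNNI3. Between the rectus muscles it was -0.17 to 0.084 for TNNC1, -0.39 to 0.30 for TNNI1, -0.35 to 0.25 for TNNT1, -0.24 to 0.041 for TNNC2 and -0.073 to 0.11 for TNNI2. The ratios there ranged from -0.20 to 0.092 (troponin C), -0.37 to 0.49 (troponin I) and -0.55 to 0.070 (troponin T). Between layers and whole muscle the range was -0.084 to 0.44 for TNNI1, -0.13 to 0.022 for TNNI2 and -0.42 to 0.030 for the troponin I ratio.

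With the replicate number as a block, 0 troponins passed between the layers and 92 probe sets in all (smallest adjusted p of a troponin 0.116 in limma). The labels do not say that a number marks a shared animal or batch, and deviations of same-numbered layer arrays correlated at 0.256. The block was not run for the rectus muscles, where some numbers only follow the order of deposit. Averaging the probe sets of a gene was not run, as each member has 1 probe set. In all, 231 of 262 alternative values of the member differences kept their direction and their side of the threshold, and 68 of 75 of the ratios kept their direction. Other floors and filters, no trend, all 4 groups in 1 fit and the replicate block left the member differences as they were. Their direction could change only with quantile normalization or an array left out, and all 19 reversals lay there. The smallest p that 2 arrays against 2 allow in the permutation test is 0.333, above the threshold for any ratio. Other floors left the ratios as they were.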
